A study of Mus musculus with 4 samples.

Results

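The genes described here are 10 members of the cellular defence against oxidants and reactive metals: the transcription factor gene *Nfe2l2* (NRF2), its inhibitor *Keap1*, the NRF2 targets *Nqo1*, *Hmox1*, *Gclc*, *Gclm*, *Txnrd1* and *Srxn1*, and the metallothionein genes *Mt1* and *Mt2*. They were chosen by symbol, with earlier results of these data known, and all 10 were found among the 48526 gene rows of the count files. RNA-seq counts were available for 4 libraries of R1 mouse embryonic stem cells (ESCs), with 2 replicates of wild-type (WT) cells and 2 of ZFP296 CRISPR KO clone 2 (KO2). KO2 is a monoclonal line made from R1 cells with CRISPR/Cas9 and a guide RNA against the first exon of *Zfp296*, whose protein binds the NuRD chromatin remodelling complex. According to the methods, all cells grew undifferentiated on gelatine in serum with LIF, the MEK inhibitor PD0325901, the GSK3 inhibitor CHIR99021 and the thiol reductant β-mercaptoethanol. KO2 is 1 clone, so an effect of the edit cannot be told apart from any other difference between this clone and the WT cells sequenced.

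NRF2 is held at a low level by KEAP1, an adaptor that brings it to the CUL3 ubiquitin ligase. When oxidants or electrophiles modify cysteines of KEAP1, NRF2 accumulates, pairs with small MAF proteins and binds antioxidant response elements (AREs) near genes for glutathione synthesis, thiol reduction and quinone detoxification. Metallothioneins are small cysteine-rich proteins that bind zinc and copper, and their genes are switched on by the metal sensor MTF1 through metal response elements (MREs).

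To show the regulatory letters near these genes, the RefSeq promoter windows (GRCm38.p6, 250 bases before to 50 after the annotated start) were searched on both strands for the ARE core TGACNNNGC and the MRE core TGCACNC or TGCGCNC. Windows were listed for 8 members, while *Hmox1* and *Gclc* had none. Printed 5′ to 3′ are the windows of the genes that rose in KO2, *Srxn1* (chr2:152105274-152105573, plus strand) and *Nqo1* (chr8:107403156-107403455, minus strand), and of the metallothioneins *Mt1* (chr8:94178839-94179138, plus strand) and *Mt2* (chr8:94172368-94172667, plus strand). Bases are counted from 1 at the annotated start and negative before it. Capitals mark the matches, and a match on the other strand appears as its reverse complement.
Srxn1: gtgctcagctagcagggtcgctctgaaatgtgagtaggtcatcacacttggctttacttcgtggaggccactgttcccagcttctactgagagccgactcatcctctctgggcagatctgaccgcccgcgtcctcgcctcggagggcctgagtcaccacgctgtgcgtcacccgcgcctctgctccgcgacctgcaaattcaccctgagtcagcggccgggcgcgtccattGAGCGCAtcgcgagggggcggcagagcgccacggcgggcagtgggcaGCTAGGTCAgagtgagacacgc
Nqo1: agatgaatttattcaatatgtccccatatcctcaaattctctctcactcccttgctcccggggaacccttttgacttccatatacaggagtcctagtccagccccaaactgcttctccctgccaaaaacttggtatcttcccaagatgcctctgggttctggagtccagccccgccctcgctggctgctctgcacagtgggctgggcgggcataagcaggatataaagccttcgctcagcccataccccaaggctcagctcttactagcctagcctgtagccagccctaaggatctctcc
Mt1: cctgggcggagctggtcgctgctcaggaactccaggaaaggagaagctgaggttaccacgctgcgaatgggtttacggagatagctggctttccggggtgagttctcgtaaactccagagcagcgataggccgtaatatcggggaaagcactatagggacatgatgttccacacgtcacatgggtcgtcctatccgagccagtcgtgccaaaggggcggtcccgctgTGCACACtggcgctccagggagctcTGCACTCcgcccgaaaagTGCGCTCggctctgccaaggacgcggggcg
Mt2: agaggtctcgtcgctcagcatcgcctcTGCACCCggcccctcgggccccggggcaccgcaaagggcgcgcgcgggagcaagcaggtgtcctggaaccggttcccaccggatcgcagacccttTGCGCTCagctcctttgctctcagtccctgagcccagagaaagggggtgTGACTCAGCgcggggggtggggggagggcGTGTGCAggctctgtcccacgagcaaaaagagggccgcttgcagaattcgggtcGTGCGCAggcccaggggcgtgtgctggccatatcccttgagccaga
In the *Srxn1* window the ARE core was matched on the other strand as TGACCTAGC, at bases 29 to 37 after the start, and the MRE core as TGCGCTC at bases -19 to -13. In the *Mt2* window the ARE core was matched as TGACTCAGC at bases -79 to -71, together with 4 MRE cores. The *Mt1* window held 3 MRE cores and no ARE core, and the *Nqo1* window held neither set of letters. Bases outside the windows and other spellings of these elements were not searched. A window without a match therefore does not show that the gene lacks the element. Nor does a marked match show that its window, such as that of *Srxn1*, holds no other spelling.

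The ARE core was present in windows of 5 of the 8 members (*Nfe2l2*, *Gclm*, *Txnrd1*, *Srxn1* and *Mt2*), compared to 12.4% of all 32851 windows. The MRE core was present in 4 of the 8 (*Gclm*, *Srxn1*, *Mt1* and *Mt2*), compared to 25.7% of all windows. In the *Gclm* window the ARE core TGACGGTGC at bases -134 to -126 shared bases with an MRE core at bases -138 to -132. *Txnrd1* had 3 windows, and only the second held an ARE core, TGACAAAGC. A member was counted if any of its windows matched, whereas the shares of all windows are per single window. Because the members were picked as NRF2 and metallothionein genes, setting them beside all windows is not a test. A match of so few letters is a description of the sequence and not a binding site.

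**Figure D1:**
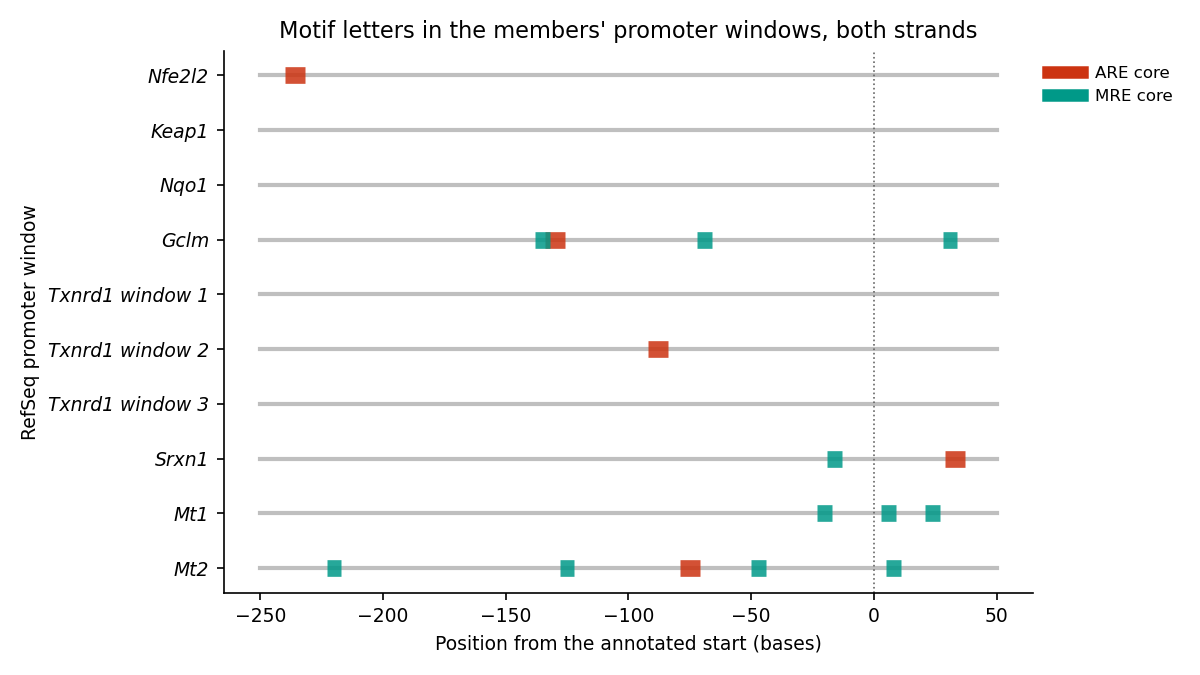
Positions of ARE core (red) and MRE core (green) letters in the RefSeq promoter windows of 8 members, with the distance from the annotated start in bases on the x axis and 1 grey line per window. The 4 MRE cores and the ARE core of *Mt2* spread over the window from base -223 to base 11, while the *Keap1* and *Nqo1* windows have no match.

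Gene counts per library totalled 2829914 and 4334499 for WT, against 7470907 and 7437294 for KO2, so both KO2 libraries were deeper. RNA of the targeted gene *Zfp296* was higher in the libraries labelled KO2, at 52.8 and 37.7 CPM (counts scaled to library size with TMM factors), than in those labelled WT, at 11.6 and 7.33 CPM (log2 fold change 2.31, standard error 0.28, adjusted p = 4.54e-05, edgeR). The counts cover the whole gene and do not show whether its coding sequence is intact, so this check does not bear out the labels, and WT and KO2 stand below for libraries labelled so. The Y-linked gene *Ddx3y* was counted 0 and 1 times for WT, against 1979 and 2197 times for KO2. R1 is a male line, yet RNA of this gene was nearly absent from the WT libraries, and what sets the groups apart there cannot be told apart from the labelled genotype in the comparisons below. All 12 ESC markers passed the filter on low counts, with summed levels of 5975 to 6015 CPM in WT and 5501 to 5706 CPM in KO2, and *Sox2* was the only one called, lower in KO2 (log2 fold change -0.79, adjusted p = 7.84e-05, edgeR). Summed fibroblast or feeder markers reached 13.4 to 19.6 CPM in WT and 12.0 to 13.6 CPM in KO2, with 8 of 10 under the filter and *Postn*, *Lum* and *Dcn* at 0. Summed primitive endoderm markers were at 480 to 524 CPM in WT and 484 to 526 CPM in KO2, mostly from *Lama1*, *Sparc* and *Col4a1*. Of 8 neural progenitor markers, 7 were matched by symbol and only *Nes* of these passed the filter (adjusted p = 0.158, edgeR), and their summed level was 87.7 to 98.8 CPM in WT and 115.4 to 121.9 CPM in KO2, with 2 of them at 0. Their part in the results below was not tested.

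Of the 10 members, *Srxn1* and *Nqo1* rose in KO2, by 2.10-fold and 1.59-fold, and the other 8 did not pass the test. The comparison addresses which transcripts differ between KO2 and WT cells. Counts were normalized with the TMM method, KO2 was compared to WT with edgeR's quasi-likelihood test over 12883 genes, and an adjusted p (Benjamini-Hochberg) under 0.05 was called. Both called members were higher in KO2, so 2 of 10 were called in this direction, compared to 2.61% of all tested genes. None of the 10 was called lower, compared to 3.04% of tested genes, and 5.64% were called in either direction. For 4 members both KO2 libraries lay above both WT libraries (*Nfe2l2*, *Txnrd1*, *Srxn1* and *Nqo1*), which 25.4% of tested genes did, and for 3 they lay below (*Gclc*, *Gclm* and *Mt2*), which 23.4% did. The median log2 fold change was 0.18 over the members and 0.01 over all tested genes. Because the members were chosen with earlier results of these data known, setting them beside all tested genes is not a test. These are bulk libraries, in which a change in the number of expressing cells and a change in RNA per cell cannot be told apart. Fits with 1 library left out, with ERCC spike-in scaling or without the filter are named where they end a call.

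**Figure D2:**
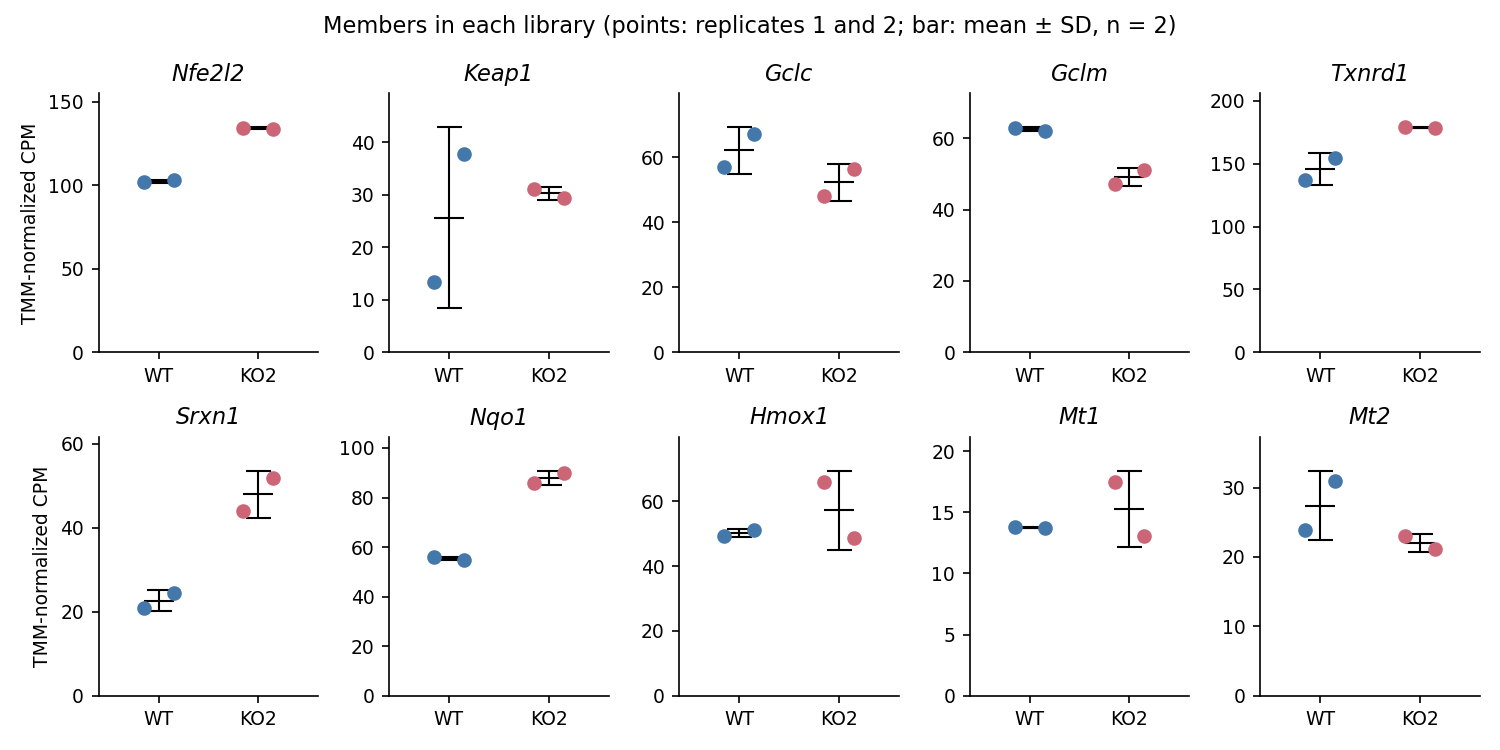
TMM-normalized CPM of the 10 members in each library (y axis, from 0), with WT in blue and KO2 in red, and the mean ± SD of 2 replicates as a black bar. *Srxn1* and *Nqo1* show KO2 points well above the WT points, whereas the WT points of *Keap1* lie at 13.4 and 37.8 CPM, on either side of both KO2 points.

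*Srxn1* (ENSMUSG00000032802, mm9 chr2:151931252-151937112, plus strand, 2 exon blocks) encodes sulfiredoxin, which reduces overoxidised peroxiredoxins. Its counts were 56 and 103 for WT, against 346 and 388 for KO2. Normalized, these were 20.9 and 24.3 CPM in WT and 43.9 and 51.9 CPM in KO2, so the lowest KO2 library was well above the highest WT library. The means were 22.6 ± 2.45 and 47.9 ± 5.65 CPM (SD, n = 2). On the log2 scale KO2 was higher by 1.07 (standard error 0.21, 95% interval 0.63 to 1.503, adjusted p = 0.00405, edgeR). The adjusted p ranged from 0.000167 to 0.132 over 13 alternative settings (edgeR or DESeq2), and 10 of them kept the call. It was lost with ERCC scaling (adjusted p = 0.101), without the filter (adjusted p = 0.132) and, narrowly, without WT replicate 1 (log2 fold change 0.97, adjusted p = 0.0505, edgeR).

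*Txnrd1* (ENSMUSG00000020250, mm9 chr10:82296696-82360469, plus strand) encodes cytosolic thioredoxin reductase, the selenoenzyme that keeps thioredoxin reduced. It was the member with the most counts, 367 and 654 for WT against 1411 and 1336 for KO2. The levels were 136.8 and 154.5 CPM in WT and 178.9 and 178.6 CPM in KO2, which did not overlap. The log2 fold change of 0.29 (standard error 0.12, 95% interval 0.04 to 0.55) had an adjusted p of 0.192 (edgeR) and was not called. The level of *Txnrd1* per kilobase was 4.60 and 4.46 times that of *Srxn1* in the WT libraries and 2.86 and 2.42 times in the KO2 libraries.

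*Nqo1* (ENSMUSG00000003849, mm9 chr8:109912125-109927106, minus strand, 6 exon blocks) encodes a quinone reductase that makes quinones less reactive, and it is also a classical target of the aryl hydrocarbon receptor. It was counted 150 and 232 times for WT and 677 and 673 times for KO2, or 55.9 and 54.8 CPM in WT and 85.8 and 90.0 CPM in KO2. Replicates of each group were close together and the groups were apart. The means of 55.4 ± 0.765 and 87.9 ± 2.91 CPM (SD, n = 2) were 0.67 apart in the fit, on the log2 scale (standard error 0.15, 95% interval 0.35 to 0.98, adjusted p = 0.0115, edgeR). Over 13 alternative settings the adjusted p ranged from 0.00275 to 0.424 (edgeR or DESeq2), and 9 settings kept the call. It was lost with ERCC scaling (adjusted p = 0.424), without the filter (adjusted p = 0.145), without WT replicate 1 (adjusted p = 0.0605, edgeR) and without WT replicate 2 (adjusted p = 0.0573, edgeR), while the log2 fold change stayed between 0.63 and 0.76.

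*Hmox1* (ENSMUSG00000005413, mm9 chr8:77617490-77624495, plus strand) encodes heme oxygenase 1, which breaks down heme to biliverdin, iron and carbon monoxide. It was counted 132 and 216 times for WT, against 519 and 363 times for KO2. The WT levels of 49.2 and 51.0 CPM lay between the KO2 levels of 65.8 and 48.5 CPM, so the groups overlapped. The log2 fold change was 0.19 (95% interval -0.19 to 0.57, adjusted p = 0.630, edgeR), and without KO2 replicate 1 it was -0.05 (adjusted p = 0.964, edgeR).

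The rate-limiting step of glutathione synthesis is carried out by glutamate-cysteine ligase, with *Gclc* as the catalytic and *Gclm* as the modifier subunit. *Gclc* (ENSMUSG00000032350, mm9 chr9:77602342-77642292, plus strand) was counted 153 and 284 times for WT and 380 and 421 times for KO2, or 57.0 and 67.1 CPM compared to 48.2 and 56.3 CPM. *Gclm* (ENSMUSG00000028124, mm9 chr3:121948475-121972902, plus strand) was counted 169 and 263 times for WT and 373 and 382 times for KO2, or 63.0 and 62.1 CPM compared to 47.3 and 51.1 CPM. For both genes both KO2 libraries were below both WT libraries, with only a small gap for *Gclc*. The log2 fold changes were -0.26 for *Gclc* (standard error 0.17, 95% interval -0.61 to 0.09, adjusted p = 0.436, edgeR) and -0.35 for *Gclm* (standard error 0.16, 95% interval -0.69 to -0.01, adjusted p = 0.246, edgeR). Neither was called, and neither became called in any of the 13 alternative settings. The ratio of *Gclc* to *Gclm* per kilobase was 1.36 and 1.62 in WT and 1.53 and 1.65 in KO2. Of the exon bases of *Gclm*, 5.76% overlap *Gm17494* on the opposite strand, and the strand setting of the counting is not given in the sources used here.

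*Nfe2l2* (ENSMUSG00000015839, mm9 chr2:75513570-75542698, minus strand) was counted 273 and 436 times for WT, against 1060 and 999 times for KO2. The levels were 101.7 and 103.0 CPM in WT and 134.4 and 133.5 CPM in KO2, with replicates close together and no overlap between the groups. The log2 fold change of 0.39 (standard error 0.13, 95% interval 0.12 to 0.66) corresponds to 1.31-fold and had an adjusted p of 0.0895 (edgeR), so it was not called. In the 13 alternative settings it lay between 0.38 and 0.47, with adjusted p from 0.0545 to 0.865 (edgeR or DESeq2). NRF2 is controlled mainly through the stability of the protein, which RNA counts do not measure.

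*Keap1* (ENSMUSG00000003308, mm9 chr9:21034174-21043776, minus strand) was counted 36 and 160 times for WT, against 245 and 220 times for KO2. WT replicate 1, at 13.4 CPM, stood apart from WT replicate 2 at 37.8 CPM and from the KO2 libraries at 31.1 and 29.4 CPM. The log2 fold change was 0.16 (standard error 0.30, 95% interval -0.46 to 0.78, adjusted p = 0.829, edgeR). It rested on which WT library was kept, with -0.32 (adjusted p = 0.466, edgeR) without WT replicate 1 and 1.17 (adjusted p = 0.0461, edgeR) without WT replicate 2. Of the exon bases of *Keap1*, 11.4% overlap *Gm16754* on the opposite strand.

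The metallothionein genes lie 5521 bases apart on the plus strand of chromosome 8, *Mt2* (ENSMUSG00000031762) at mm9 chr8:96696518-96697467 and *Mt1* (ENSMUSG00000031765) at mm9 chr8:96702989-96704225. *Mt1* was counted 37 and 58 times for WT and 138 and 98 times for KO2, or 13.8 and 13.7 CPM compared to 17.5 and 13.1 CPM, and the groups overlapped. *Mt2* was counted 64 and 131 times for WT and 181 and 158 times for KO2, or 23.9 and 30.9 CPM compared to 22.9 and 21.1 CPM, with both KO2 libraries just below the lower WT library. The log2 fold changes were 0.16 for *Mt1* (standard error 0.31, 95% interval -0.50 to 0.81, adjusted p = 0.845, edgeR) and -0.33 for *Mt2* (standard error 0.24, 95% interval -0.83 to 0.16, adjusted p = 0.482, edgeR). Neither was called under any of 13 settings, and *Mt1* turned to -0.06 without KO2 replicate 1 (adjusted p = 0.970, edgeR). Counting error alone was up to 16.4% of a library's value for *Mt1* and 12.5% for *Mt2*, and a log2 fold change like that of *Nfe2l2* (0.39) lies within the interval of *Mt1*. The ratio of *Mt2* to *Mt1* per kilobase was 2.34 and 3.06 in WT and 1.78 and 2.18 in KO2. The other metallothionein genes, named here after their counts were seen, were absent or nearly so, with 0 counts of *Mt3* in any library and 1 count of *Mt4* in all.

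**Figure D3:**
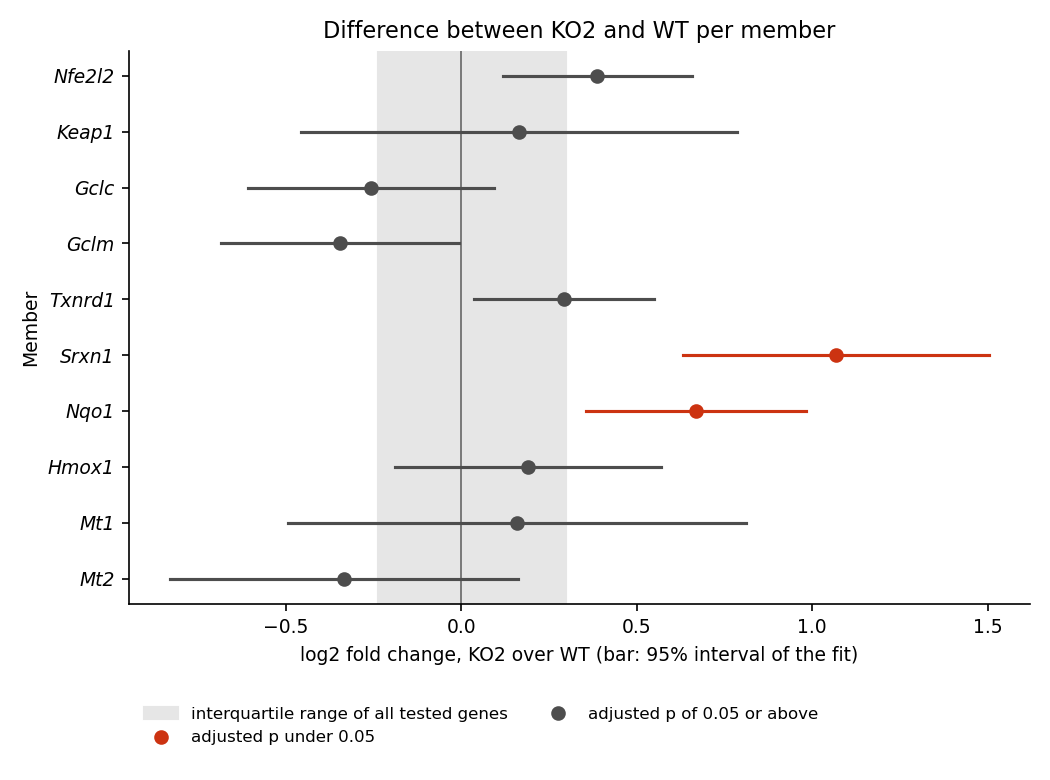
Log2 fold change between KO2 and WT for each member (x axis), with the 95% interval of the edgeR fit as a bar and the interquartile range of all 12883 tested genes (-0.24 to 0.30) in grey. The intervals of *Srxn1* and *Nqo1* (red, adjusted p under 0.05) lie above 0.35, while those of *Keap1*, *Gclc*, *Hmox1*, *Mt1* and *Mt2* include 0.

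To compare levels between members, CPM were divided by the length of the exons in kilobases. In WT, *Mt2* had the highest level, 49.3 ± 9.03 CPM per kilobase (SD, n = 2), followed by *Txnrd1* at 36.2 ± 3.13, *Nqo1* at 35.65 ± 0.493, *Nfe2l2* at 27.0 ± 0.239 and *Hmox1* at 23.2 ± 0.604. *Mt1* was at 18.3 ± 0.0789 and *Gclc* at 18.1 ± 2.08, with *Gclm* at 12.2 ± 0.115, *Srxn1* at 8.02 ± 0.870 and *Keap1* at 5.73 ± 3.86 CPM per kilobase. The neighbours *Txnrd1* and *Nqo1*, *Mt1* and *Gclc*, and *Srxn1* and *Keap1* overlapped between libraries in this order. The median of tested genes with a known length was 7.15 CPM per kilobase, so 9 of the 10 members were above it. In KO2, *Nqo1* came first at 56.6 ± 1.87 CPM per kilobase, before *Txnrd1* at 44.5 ± 0.0601 and *Mt2* at 39.6 ± 2.33, and *Srxn1* reached 17.0 ± 2.00. With the longest transcript in place of all exons, *Nfe2l2* moved to second place in WT, at 41.4 CPM per kilobase.

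Likeness to the called members was measured by the root mean square difference of log2 CPM centred over the 4 libraries. The nearest patterns were sought among the tested genes with a symbol. For *Srxn1* these were *Pygl* (0.0395), *Tbx15* (0.0620) and *Gatsl3* (0.0624). For *Nqo1* they included *Akt1* (0.0252) and *Gabarapl2* (0.0256). Of these genes, *Tbx15* and *Gabarapl2* were called higher in KO2 (adjusted p = 0.00151 and 0.000259, edgeR). *Pygl*, *Gatsl3* and *Akt1* were not called (adjusted p = 0.0511, 0.186 and 0.1475, edgeR). With 4 libraries in 2 groups, such likeness mostly states an equal step between the groups.

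The related genes were read from 5 lists of 14 to 35 genes. These lists were also chosen with earlier results of these data known, so their shares beside all tested genes are not a test. Of the partners and regulators of NRF2, 13 of 14 were tested, 3 rose in KO2 and none fell (of all tested genes, 2.61% rose and 3.04% fell), with a median log2 fold change of 0.11. *Btrc*, a substrate adaptor of another ubiquitin ligase for NRF2, went from 73.4 and 72.8 CPM in WT to 107.5 and 114.4 CPM in KO2 (log2 fold change 0.60, standard error 0.14, adjusted p = 0.0138, edgeR). *Bach1*, a repressor that competes with NRF2 for its sites, went from 212.8 and 221.2 CPM to 281.4 and 310.1 CPM (log2 fold change 0.45, standard error 0.11, adjusted p = 0.0256, edgeR). *Sqstm1*, the autophagy receptor p62 that binds KEAP1 and is itself an NRF2 target, went from 153.2 and 187.9 CPM to 255.8 and 221.0 CPM (log2 fold change 0.48, standard error 0.13, adjusted p = 0.0346, edgeR). Both KO2 libraries lay above both WT libraries in all 3 genes, as in 6 of the 13 tested genes of this list and 25.4% of all tested genes. They lay below in 2 genes of the list and 23.4% of all tested genes. *Btrc* and *Bach1* are known to act against NRF2 and *Sqstm1* in its favour, and whether they did so in these cells was not tested. *Cul3*, the gene of the ligase itself, had means of 356 ± 15.5 and 347 ± 25.6 CPM (SD, n = 2), and its log2 fold change was -0.04 (95% interval -0.26 to 0.19). All 3 calls were lost without WT replicate 1 (adjusted p = 0.0712 for *Btrc*, 0.145 for *Bach1* and 0.250 for *Sqstm1*, edgeR), with ERCC scaling (0.510, 0.775 and 0.769) and without the filter (0.154, 0.176 and 0.293). Those of *Btrc* and *Bach1* were also lost without WT replicate 2 (0.0635 and 0.0823) or KO2 replicate 2 (0.0668 and 0.157), and that of *Sqstm1* without KO2 replicate 1 (adjusted p = 0.230, edgeR).

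Of 35 further NRF2 targets, 29 were tested, none rose and 2 fell in KO2, with a median log2 fold change of -0.02. The called share of 6.90% was near the 5.64% of all tested genes. *Gsta4*, a glutathione transferase for lipid peroxidation products, fell from 362.2 and 346.9 CPM to 255.0 and 254.2 CPM (log2 fold change -0.48, standard error 0.11, adjusted p = 0.0121, edgeR). *Abcc2*, an exporter of glutathione conjugates, fell from 13 and 20 counts in WT to 6 and 3 in KO2 (log2 fold change -2.98, standard error 0.74, adjusted p = 0.0222, edgeR), a size that is uncertain at so few counts. *Prdx1*, a peroxiredoxin, had means of 537.5 ± 16.5 and 528.5 ± 21.4 CPM (SD, n = 2) and a log2 fold change of -0.02 (95% interval -0.24 to 0.19). The call of *Gsta4* was lost without WT replicate 1 (adjusted p = 0.0948, edgeR), with ERCC scaling (0.968) and without the filter (0.152). That of *Abcc2* was lost whichever library was left out (adjusted p from 0.105 to 0.144, edgeR), without the filter (0.165) and with thinning to equal depth (0.0585). *Slc7a11*, the cystine importer that supplies glutathione synthesis and is named here after its values were seen, was counted 12 and 17 times for WT, against 4 and 12 times for KO2 (log2 fold change -1.99, standard error 0.71, adjusted p = 0.119, edgeR).

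Of 28 other genes of the glutathione and thioredoxin systems, 27 were tested, 2 rose and none fell, with a median log2 fold change of 0.04 and a called share of 7.41%, compared to 5.64% of all tested genes. The glutathione peroxidase genes *Gpx1* and *Gpx4*, whose enzymes reduce hydrogen peroxide and lipid hydroperoxides and contain selenocysteine, were the ones that rose. *Gpx1* went from 84.6 and 96.4 CPM to 152.9 and 139.2 CPM (log2 fold change 0.69, standard error 0.13, adjusted p = 0.00434, edgeR). *Gpx4* went from 361.1 and 388.0 CPM to 545.3 and 504.2 CPM (log2 fold change 0.49, standard error 0.11, adjusted p = 0.00943, edgeR). In both, the KO2 libraries lay above the WT libraries, as in 9 of the 27 tested genes of this list and 25.4% of all tested genes. They lay below in 7 genes of the list and 23.4% of all tested genes. *Sod2*, the mitochondrial superoxide dismutase, had means of 361.1 ± 23.8 and 390.5 ± 10.5 CPM (SD, n = 2) and a log2 fold change of 0.11 (95% interval -0.11 to 0.34). Both calls were lost without WT replicate 1 (adjusted p = 0.0663 and 0.119, edgeR), with ERCC scaling (0.411 and 0.775) and without the filter (0.138 and 0.128), and without KO2 replicate 1 that of *Gpx4* was lost (adjusted p = 0.0510, edgeR).

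Of 27 genes of zinc and copper handling, 24 were tested, 1 rose and none fell, with a median log2 fold change of 0.06 and a called share of 4.17%, compared to 5.64% of all tested genes. *Atox1*, a copper chaperone, went from 5.22 and 8.27 CPM in WT to 24.6 and 15.4 CPM in KO2 (log2 fold change 1.51, standard error 0.37, adjusted p = 0.0221, edgeR), and its call was lost without WT replicate 1 (adjusted p = 0.144, edgeR) or KO2 replicate 1 (adjusted p = 0.180, edgeR), with ERCC scaling (0.0582) and without the filter (0.244). The zinc importer gene *Slc39a10* had means of 119.6 ± 1.58 and 97.5 ± 9.89 CPM (SD, n = 2, adjusted p = 0.237, edgeR), and the zinc transporter gene *Slc30a5* was at 104.3 and 95.7 CPM in WT and 104.6 and 104.0 CPM in KO2 (adjusted p = 0.857, edgeR). *Mtf1* and its zinc exporter target *Slc30a1*, named here after their values were seen, had log2 fold changes of 0.40 (95% interval -0.08 to 0.88) and 0.22 (95% interval -0.09 to 0.52), neither of them called.

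Of 17 genes of heme and iron handling, 16 were tested, none rose and 2 fell, with a median log2 fold change of -0.02 and a called share of 12.5%, compared to 5.64% of all tested genes. *Tfrc*, the transferrin receptor that brings iron into the cell, fell from 2033 and 1948 CPM in WT to 1026 and 1224 CPM in KO2 (log2 fold change -0.82, standard error 0.11, adjusted p = 7.48e-05, edgeR). Its call was kept in 12 of 13 settings, and only ERCC scaling ended it (adjusted p = 0.671, edgeR). *Flvcr1*, a heme exporter, fell from 27.2 and 29.3 CPM to 14.2 and 14.97 CPM (log2 fold change -0.96, standard error 0.25, adjusted p = 0.0293, edgeR) and was called in 6 of 13 settings. Its adjusted p was 0.0874 without WT replicate 1, 0.129 without WT replicate 2, 0.0940 without KO2 replicate 1, 0.350 with ERCC scaling, 0.184 without the filter and 0.0514 with thinning to equal depth (edgeR), and 0.0939 with DESeq2. *Ireb2*, a regulator of *Tfrc* RNA stability, had means of 399.1 ± 23.1 and 387.7 ± 38.8 CPM (SD, n = 2) and a log2 fold change of -0.04 (95% interval -0.28 to 0.19).

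**Figure D4:**
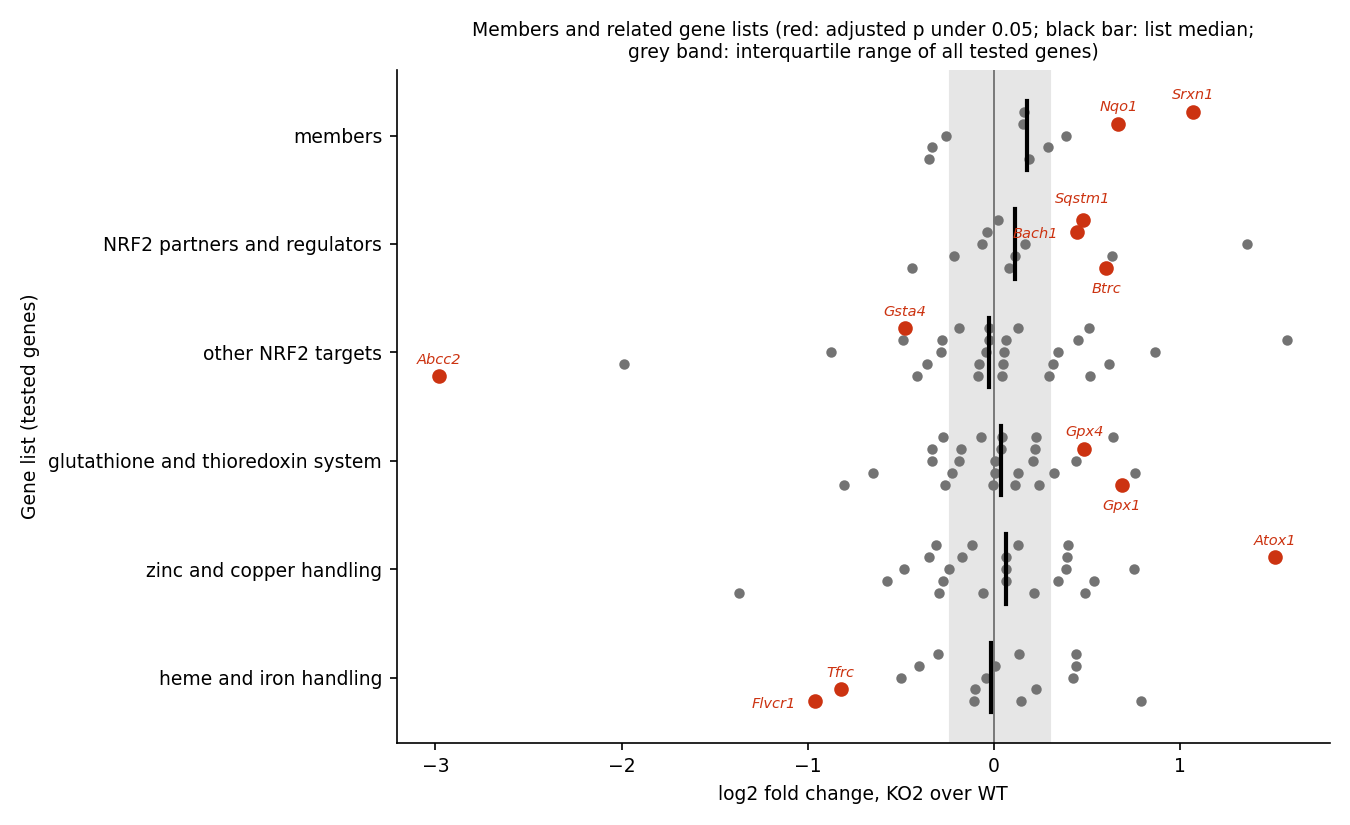
Log2 fold change between KO2 and WT (x axis) of each tested gene in the members and in 5 related lists, with called genes in red and named, the median of each list as a black bar and the interquartile range of all tested genes in grey. The called regulators (*Btrc*, *Bach1* and *Sqstm1*) and glutathione peroxidases lie on the right and *Gsta4*, *Abcc2*, *Tfrc* and *Flvcr1* on the left, and the list medians lie between -0.02 and 0.18.

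**Figure D5:**
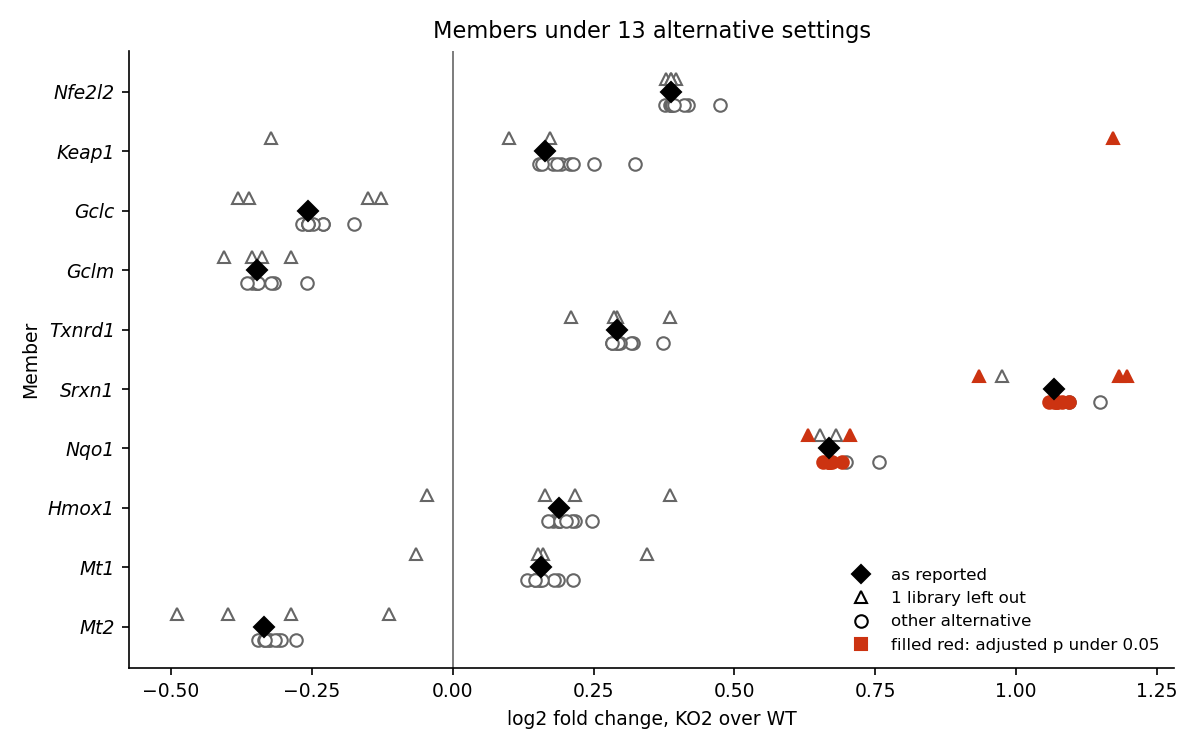
Log2 fold change of each member (x axis) as reported (diamonds), with 1 library left out (triangles) and under the other alternatives (circles), with red where the adjusted p was under 0.05. *Srxn1* and *Nqo1* stay between 0.93 and 1.20 and between 0.63 and 0.76, whereas *Keap1* spreads from -0.32 to 1.17.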

How the data were processed

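RNA was isolated in duplicate from WT R1 ESCs and KO2, depleted of ribosomal RNA and made into strand-specific libraries. According to the methods and the labels, the authors mapped reads to mm9 with HISAT2 and deposited raw HTSeq counts per gene for each replicate, without pooling. Versions, annotation and counting options are not given in the sources used here. Reads that mapped to several places (35.6% to 40.4% of all counts) and the other HTSeq summary rows (52.9% to 58.8% in all) were left out of library sizes and tests, as were the ERCC spike-in rows (at most 0.0443%). Reads in more than 1 place are not counted, so genes with near-identical copies may lose counts.

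Symbols, mm9 coordinates and exon lengths came from GENCODE M1, which covers 32782 of 48526 identifiers, and *Flvcr1* and other renamed genes were matched by RefSeq synonyms. Genes were kept by filterByExpr (minimum count 10, minimum total 15), normalized by TMM and tested across all 12883 genes with edgeR 4.0.16 (glmQLFit with legacy=FALSE, glmQLFTest, R 4.3.3), with condition as the only term and Benjamini-Hochberg adjustment. The study used DESeq2, which was run as an alternative (1.42.0). Intervals are 95% intervals from the moderated fit. The floor of 3 counts equals 1.12 and 0.709 CPM for WT, against 0.380 and 0.401 CPM for KO2. Replicates differed by more than sampling noise (chi-square per gene 5.92 in WT and 21.3 in KO2), and p-values cover the spread between duplicate RNA isolations only.

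The members and lists were chosen with earlier results of these data known. The text names all members, per list the called genes (at most 6, by size of change) and the 2 tested genes with the highest mean CPM, *Zfp296*, and for each called member the 3 nearest patterns, of which 1 is not reported here. Alternatives were RLE normalization, ERCC scaling, no filter, at least 10 counts in every sample, DESeq2, edgeR's earlier quasi-likelihood estimate, a replicate block, leaving out Y-linked, mitochondrial and small RNA genes, thinning to 2829914 counts (20 draws) and leaving out each replicate. The fit was tested on data simulated from its own means and dispersions, which does not test the calls made here. No protein sequences were used.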

Additional observations from a re-analysis of the deposited data

How the results depend on the processing

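All members but *Keap1*, *Hmox1* and *Mt1* kept their direction in all 13 alternatives. Leaving out 1 library gave log2 fold changes of -0.32 to 1.17 for *Keap1*, -0.0456 to 0.39 for *Hmox1*, -0.0643 to 0.34 for *Mt1*, 0.63 to 0.71 for *Nqo1*, 0.93 to 1.20 for *Srxn1* and 1.97 to 2.62 for *Zfp296*. Of the 12 calls among members and lists, 11 were lost without WT replicate 1, 5 without WT replicate 2, 5 without KO2 replicate 1 and 3 without KO2 replicate 2. With 1 library in a group, that library is assumed to vary like the others.

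With ERCC scaling, which rests on 2515 to 7024 spike-in counts per library, log2 fold changes were 0.76 for *Nqo1* and 1.149 for *Srxn1*, and the standard error of *Nqo1* went from 0.15 to 0.35. The median over all genes moved to 0.09. Genes called fell from 727 to 163 (90 higher, 73 lower), and 0 members, 0 partners and regulators, 1 further target, 0 glutathione and thioredoxin genes, 0 zinc and copper genes and 0 heme and iron genes were called. Without the filter, 25397 genes were tested and 61 called (29 higher, 32 lower), with *Nqo1* at 0.70, *Srxn1* at 1.09 and *Zfp296* at 2.35 (adjusted p = 0.0570, edgeR). The counts were then 0 members, 0 partners and regulators, 0 further targets, 0 glutathione and thioredoxin genes, 0 zinc and copper genes and 1 heme and iron gene. DESeq2 called 454 genes (189 higher), 1 further target, with *Abcc2* given no adjusted p, and 1 heme and iron gene. Leaving out 1 library gave 270 to 691 called genes (122 to 341 higher, 148 to 350 lower), 0 to 2 members, 0 to 2 partners and regulators, 0 to 2 further targets, 0 to 2 glutathione and thioredoxin genes, 0 to 1 zinc and copper genes and 1 to 2 heme and iron genes. Thinning left 1 further target called. Zinc and copper calls went from 1 to 2 with RLE, with at least 10 counts in every sample, with the replicate block and without Y-linked, mitochondrial and small RNA genes. The cause of these moves was not tested.

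The labels and methods do not say whether replicates of the same number were prepared together. Deviations from the group means of the same number correlated at -0.00658, which cannot settle this. With the replicate block, 950 genes were called and the calls of all 12 members and list genes were kept. Levels per kilobase moved with the longest transcript to 41.4 for *Nfe2l2*, 31.2 for *Hmox1*, 12.9 for *Gclm*, 40.1 for *Txnrd1* and 21.8 for *Mt1*. With the 250 bases before the start alone, 4 members held each motif. Counting error was largest for *Keap1* (up to 16.7% of a library's value), *Mt1* (16.4%) and *Srxn1* (13.4%).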
